A study of Mus musculus with 29 samples.

Results

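Initiator tRNA-Met genes were compared for their occupancy by RNA polymerase III (Pol III) in resting and regenerating mouse liver. All 7 genes whose isotype label contains Met without being Met alone were taken, of the 433 tRNA genes among the annotated Pol III loci, and the 11 genes labelled Met served as the elongator comparison. Occupancy was measured by ChIP-seq of RPC4, a subunit of Pol III, in 8 libraries from liver of male C57BL/6 mice aged 12 to 14 weeks, taken before (TP0) or 36, 48 or 60 h after partial hepatectomy, abbreviated PH (TP36, TP48, TP60). Every time point had 2 libraries, and the livers of 3 mice went into each library, so that the spread between replicates is that between pools, and liver was sampled as whole tissue. A change in all cells and a change in the share of cells with an occupied gene cannot be told apart in such samples. No sham-operated mice were among the RPC4 groups compared. Per the methods, PH was done early in the light phase, in mice with food at night. TP36 and TP60 thus fell at another time of day than PH itself and TP48. If the TP0 livers were taken at the hour of PH, the changes from TP0 to TP36 and to TP60 also span that difference. The part of the time of day in the changes was not tested.

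The initiator tRNA brings the first methionine to the start codon, and elongator tRNA-Met serves the methionine codons inside the reading frame, although both read AUG. Pol III transcribes tRNA genes from promoters inside the gene, the A box and the B box, which are bound by TFIIIC, and TFIIIB, bound upstream of the gene, then places Pol III at the start site. Transcription ends at a run of T shortly after the coding sequence. Partial hepatectomy removes part of the liver and sends the remaining hepatocytes, normally resting, into the cell cycle.

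The 7 genes held 1 and the same coding sequence of 72 bases in the NCBI37 (mm9) assembly, so that nothing inside the gene distinguished their internal promoters. The assembly held 7 exact copies of this sequence, and all 7 were rows of the table. It is shown here with 2 near copies labelled Met and with n-Tm15, an elongator gene, because label and sequence did not always go together. In the first and the last line, capitals mark the letters GGCNCAG of the A box region where present, the anticodon CAT, and the letters GATCNA or GTTCNA of the B box region. In the lines of n-Tm2 and n-Tm3 a capital marks the only base that differs from the shared sequence.
Shared by the 7 initiator genes: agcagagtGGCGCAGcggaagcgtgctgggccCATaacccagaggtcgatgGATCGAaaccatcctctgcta
n-Tm2, chr13:21998980-21999051, plus strand: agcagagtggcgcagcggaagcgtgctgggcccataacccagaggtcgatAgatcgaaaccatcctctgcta
n-Tm3, chr15:69227053-69227124, minus strand: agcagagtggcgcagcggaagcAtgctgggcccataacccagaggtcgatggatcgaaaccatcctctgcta
n-Tm15, chr13:21261556-21261628, minus strand: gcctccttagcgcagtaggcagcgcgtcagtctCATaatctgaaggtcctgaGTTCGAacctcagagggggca
Counted from 1 at the 5′ end of the gene, n-Tm2 differed from the initiator sequence by G51A and n-Tm3 by G23A, although both are labelled Met. The other 9 genes labelled Met differed from it by 31 to 48 edits. On the coding strand, GATCNA was found in 7 of 7 initiator genes and in 19.4% of the 433 tRNA genes, GTTCNA in 0 of 7 and 90.5%, and GGCNCAG in 7 of 7 and 3.7%. These are matches of letters anywhere in the gene.

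The sequence outside the coding region differed between the 7 copies. The 50 bases before each gene are shown first, with TATA in capitals where these letters occur on the coding strand, because the copies differ in their flanks alone.
n-Tm7, chr13:21802863-21802934, plus strand: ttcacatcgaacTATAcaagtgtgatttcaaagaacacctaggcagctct
n-Tm8, chr13:22066901-22066972, plus strand: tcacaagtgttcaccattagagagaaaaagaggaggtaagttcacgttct
n-Tm11, chr3:90279782-90279853, minus strand: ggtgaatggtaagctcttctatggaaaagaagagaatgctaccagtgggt
n-Tm6, chr13:23609561-23609632, plus strand: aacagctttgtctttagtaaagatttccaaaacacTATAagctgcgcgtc
n-Tm9, chr13:23622217-23622288, minus strand: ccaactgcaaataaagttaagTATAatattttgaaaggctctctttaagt
n-Tm5, chr13:23591949-23592020, plus strand: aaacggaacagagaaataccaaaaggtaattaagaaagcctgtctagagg
n-Tm10, chr13:22023038-22023109, minus strand: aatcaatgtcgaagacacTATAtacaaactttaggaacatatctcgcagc
The coordinates are those of the genes. Aligned at the gene start without gaps, pairs of these flanks were identical at 14% to 38% of positions. TATA occurred before 4 of the 7 genes and before 25.4% of the 433 tRNA genes.

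The 30 bases after each gene follow in the same order, with the first run of 4 or more T in capitals, since such a run is where Pol III stops.
n-Tm7: aggtgcagcTTTTTTTTTTcctcgtcacac
n-Tm8: tgagataTTTTgtgcagtctcctcacactg
n-Tm11: tcggaggctttgTTTTTaaaattttgacaa
n-Tm6: acttgtcTTTTggacaggtttcaaggaaaa
n-Tm9: tctggacTTTTTTTTTTcttttttccctcc
n-Tm5: gagcTTTTTTTTTTTTTTTTaacataaaac
n-Tm10: cagagcTTTTctttccccttacagcaatat
Aligned in the same way, pairs of these flanks were identical at 26.7% to 53.3% of positions. A run of this kind lay within 30 bases of 7 of 7 initiator genes and of 82.9% of all tRNA genes. The first run held 16 T at n-Tm5, 10 at n-Tm7 and n-Tm9, 5 at n-Tm11 and 4 at n-Tm8, n-Tm6 and n-Tm10. In the window of 372 bases that the scores cover, G and C made up 40.1% to 43.3% of bases at the 7 genes, against a median of 45.4% over all tRNA genes, and CpG occurred 8 to 14 times, against a median of 11 over all tRNA genes and of 14 over occupied ones.

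Of the 7 genes, 6 lie on chromosome 13, where n-Tm5, n-Tm6 and n-Tm9 fall within 30340 bp and n-Tm10 and n-Tm8 within 43935 bp, and n-Tm11 lies on chromosome 3. None overlapped a protein-coding gene of the GENCODE annotation of NCBI37. The nearest start of a protein-coding gene was 270 bp from n-Tm11, at Ilf2, which encodes an RNA-binding protein, and 631 bp from n-Tm9, at the histone H4 gene Hist1h4h. For the others it lay 5149 bp (n-Tm7, Hist1h2bl) to 13872 bp (n-Tm10, Zfp184) away.

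The RPC4 score is the authors' log2 ratio of ChIP over input fragments, counted over the coding region and 150 bp of flank at either end. Genes were called occupied at a time point if they exceeded the authors' cutoff in at least 1 of its libraries. The cutoffs lay between 0.81 and 0.87 in the replicate 1 libraries and between 1.33 and 1.55 in those of replicate 2. Before PH, 6 of the 7 initiator genes were occupied, and they fell into a high and a low class with no gene between. The high class held n-Tm7 with a mean score of 5.35 ± 0.17 (SD, n = 2), n-Tm8 with 5.28 ± 0.51, n-Tm11 with 5.12 ± 0.70, n-Tm6 with 4.77 ± 0.36 and n-Tm9 with 4.73 ± 0.08. Neighbours in this order overlapped in their replicates. Below them n-Tm5 had a mean of 1.42 ± 0.11 and n-Tm10 of 0.55 ± 0.15, with no overlap between n-Tm9 and n-Tm5 or between n-Tm5 and n-Tm10. Among the 433 tRNA genes, the 5 high copies ranked 9 to 117 in the TP0 libraries, n-Tm5 ranked 229 and 230, and n-Tm10 267 and 268.

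The sequence features listed above did not part the low pair from the rest: n-Tm5 had the longest run of T and n-Tm10 one of the shortest, n-Tm10 had TATA upstream and n-Tm5 did not, and their windows held 8 and 11 CpG. The part of the score owed to multiply matching fragments was 0% to 1.18% at the 5 high copies, at most 3.08% at n-Tm5 and 1.1% to 9.32% at n-Tm10. The coding sequence itself cannot assign a read to 1 copy, and how much this moved the scores was not tested.

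n-Tm5 had the largest change of the 7 genes. Its scores were 1.34 and 1.5 at TP0, 5.32 and 3.58 at TP36, 4.2 and 5.25 at TP48 and 4.71 and 6.29 at TP60. The TP0 scores lay near the cutoffs of 0.84 and 1.33, and with cutoffs raised by 0.5 the gene was not occupied at TP0. The folds given here thus start from near the cutoff. All 6 libraries after PH lay above both TP0 libraries, although the SD between replicates after PH reached 1.23 (n = 2). The change from TP0 was 3.03 at TP36 (SE 0.67, q = 0.00646), 3.31 at TP48 (SE 0.67, q = 0.00266) and 4.08 at TP60 (SE 0.67, q = 0.000646) by limma with Storey q values over all loci, or 8.19-fold, 9.88-fold and 16.9-fold in the ratio of ChIP over input. Its rank among tRNA genes moved from 229 and 230 at TP0 to 194 and 125 at TP60.

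n-Tm10 went from unoccupied to occupied. Its scores were 0.45 and 0.66 at TP0, both under the cutoff, then 3.13 and 1.82 at TP36, 2.12 and 2.57 at TP48, and 3.43 and 3.94 at TP60, all above it. The groups before and after PH did not overlap. The change was 1.93 at TP36 (SE 0.50, q = 0.0116), 1.79 at TP48 (SE 0.50, q = 0.0103) and 3.13 at TP60 (SE 0.50, q = 0.000491), which is 3.8-fold, 3.47-fold and 8.75-fold. The gene counted as occupied in these comparisons only through its later libraries. It nevertheless kept the lowest score of the 7 in every library and ranked 248 and 267 among tRNA genes at TP60.

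n-Tm9 was the only high copy that passed the threshold at any time point. Its scores were 4.78 and 4.68 at TP0, 6.38 and 5.34 at TP36, 5.40 and 6.09 at TP48, and 5.84 and 6.60 at TP60. Every library after PH was above both TP0 libraries. The change was 1.13 at TP36 (SE 0.49, q = 0.0791), 1.01 at TP48 (SE 0.49, q = 0.0592) and 1.49 at TP60 (SE 0.49, q = 0.0197).

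The remaining 4 high copies had higher mean scores after PH, but no change that passed the threshold. n-Tm6 had scores of 5.03 and 4.52 at TP0, 6.22 and 5.04 at TP36, 5.54 and 6.02 at TP48, and 5.41 and 6.05 at TP60, with no overlap between TP0 and later libraries. n-Tm8 had 5.64 and 4.92 at TP0, 6.39 and 5.27 at TP36, 6.08 and 6.25 at TP48, and 6.03 and 6.49 at TP60. At n-Tm8 1 TP36 library lay between the TP0 libraries.

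n-Tm11, the copy on chromosome 3, had 5.61 and 4.62 at TP0, 6.41 and 4.88 at TP36, 6.16 and 5.99 at TP48, and 6.03 and 6.48 at TP60, so that here too TP0 and TP36 overlapped. n-Tm7, the highest copy before PH, had 5.23 and 5.47 at TP0, 6.15 and 5.19 at TP36, 6.13 and 6.14 at TP48, and 5.49 and 7.0 at TP60. Its second TP36 library was below both TP0 libraries. The changes of these 4 genes were 0.32 to 0.86 at TP36, 0.79 to 1.01 at TP48 and 0.90 to 1.14 at TP60. Their 95% intervals reached from -0.88 to 2.37 over the 3 comparisons, so that more than a doubling of the ratio, as well as no change, remained within them.

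**Figure D1:**
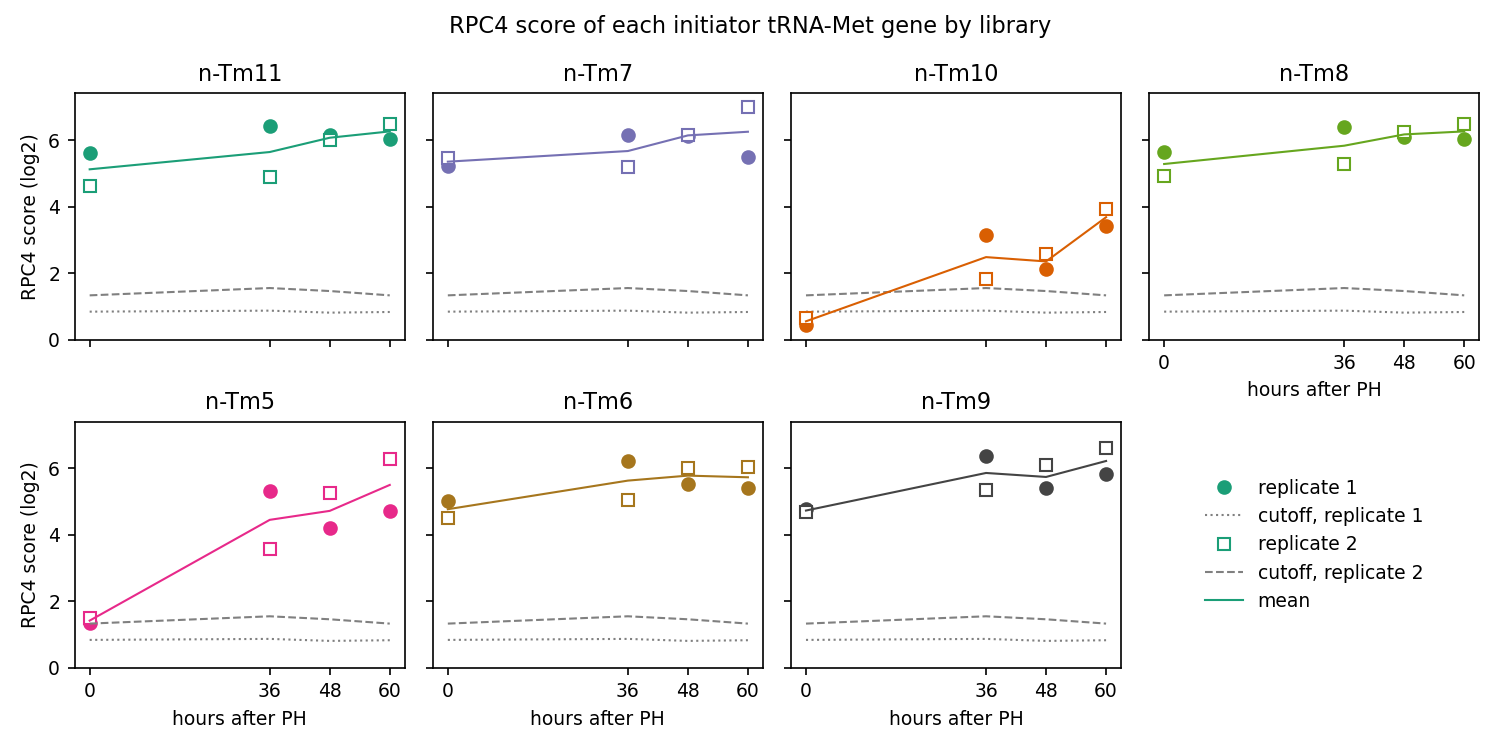
RPC4 score (log2 ratio of ChIP over input, y axis) of each initiator tRNA-Met gene against hours after PH (x axis). Filled circles are replicate 1, open squares replicate 2, coloured lines the means and grey lines the cutoffs of each replicate's libraries. n-Tm5 and n-Tm10 start at means of 1.42 and 0.55 and end at 5.50 and 3.68, while the other 5 genes start between 4.73 and 5.35.

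In counts, 2 of the 7 initiator genes rose by TP36, where 29.0% of all occupied loci, 34.8% of occupied tRNA genes and 56.7% of those on chromosome 13 rose. By TP48 it was 2 of 7, against 51.5%, 62.9% and 84.3%, and by TP60 3 of 7, against 57.3%, 67.2% and 90.4%. At TP48 and TP60 as many occupied loci had q under 0.05 as had an unadjusted limma p under 0.05 (247 and 279). The Storey adjustment thus removed no call there, while at TP36 it left 141 of 194. Benjamini-Hochberg adjustment gave the same 2, 2 and 3 initiator genes. None of the 7 fell, except relative to the median with centred libraries, as given with the scalings. Both later libraries lay above both TP0 libraries for 4 of 7 genes at TP36 (68.2% of occupied loci), 7 of 7 at TP48 (92.1%) and 7 of 7 at TP60 (83.4%). The median change of the 7 genes was 0.86, 1.01 and 1.14 at the 3 time points, and that of all occupied loci 0.96, 1.12 and 1.22.

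Without TP0 replicate 1, TP0 replicate 2 or TP36 replicate 1, n-Tm5 and n-Tm10 no longer passed at TP36 (q of 0.0527 to 0.112) and 0 of 7 genes rose, and without TP36 replicate 2 it was 6 of 7. At TP48, n-Tm10 did not pass without TP0 replicate 1, TP0 replicate 2 or TP48 replicate 2 (q of 0.0592 to 0.124), while a fit of TP0 and TP48 alone called 7 of 7, and at TP60 n-Tm9 was lost without TP0 replicate 1, TP0 replicate 2 or TP60 replicate 2 (q of 0.0685 to 0.173), while 7 of 7 rose without TP60 replicate 1.

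**Figure D2:**
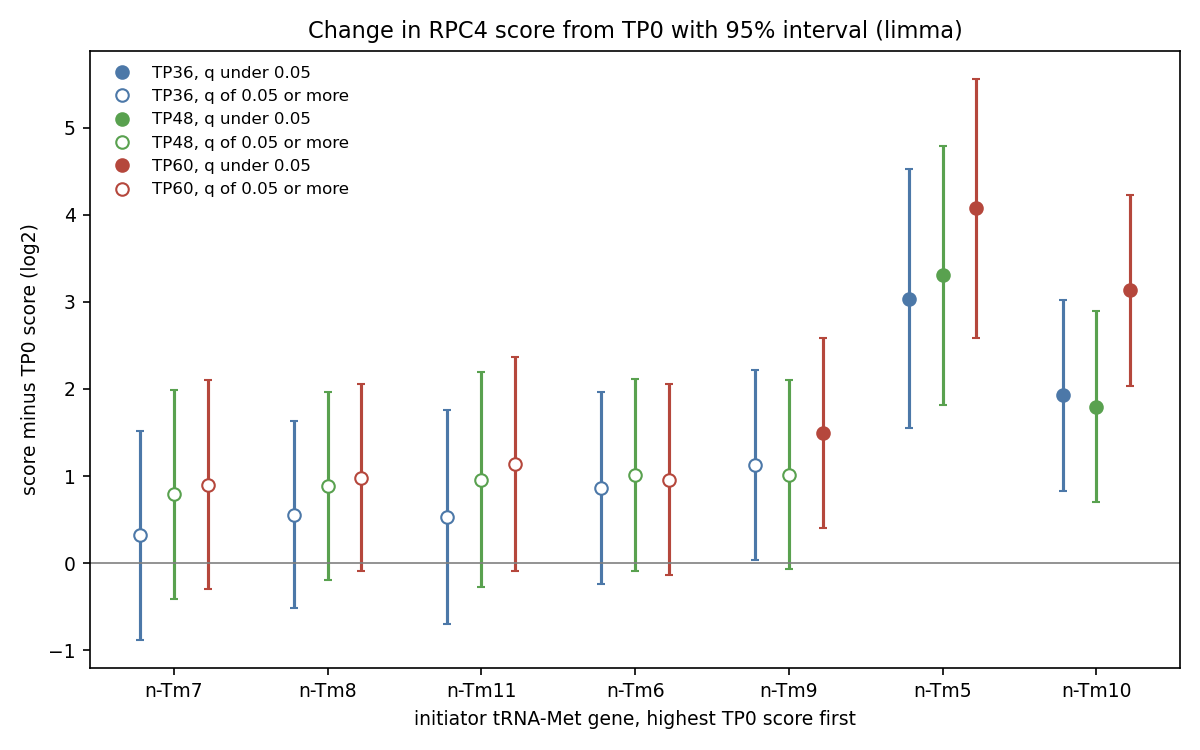
Change in RPC4 score from TP0 (y axis, log2) for each initiator tRNA-Met gene (x axis, highest TP0 score first) at TP36, TP48 and TP60. Points are limma estimates, filled where q was under 0.05, and bars are 95% intervals. The intervals of n-Tm5 and n-Tm10 lie above 0 at all 3 time points, from 0.70 upwards.

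Scores rose at most loci, and the median score of occupied loci moved from 2.46 and 2.49 in the TP0 libraries to between 3.93 and 5.22 after PH. With each library shifted by the median deviation of occupied loci, an alternative added after seeing the data, n-Tm5 still rose by 2.09 (q = 0.00323), 2.12 (q = 0.0029) and 2.75 (q = 0.00027) relative to the typical locus (limma, Storey q). n-Tm10 rose by 0.99 (q = 0.0268) and 1.81 (q = 0.000555) at TP36 and TP60, and its 0.61 at TP48 did not pass (q = 0.0743). The 5 high copies then had changes of -0.62 to 0.19, none past the threshold and most of them with the sign turned. The planned centring, on the median score itself, removes a larger shift. With it n-Tm5 rose by 1.22 (q = 0.00405), 1.29 (q = 0.00194) and 1.84 (q = 0.000304), n-Tm10 passed at TP60 (0.89, q = 0.00252) but not at TP36 (0.11, q = 0.125) or TP48 (-0.22, q = 0.0519), and the 5 high copies were called lower at all 3 time points, by limma with Storey q. The direction of the high copies thus depended on the scaling.

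On the log2 scale the 7 copies drew together after PH. The distance from the lowest to the highest copy was 5.2 and 4.81 in the TP0 libraries, 3.28 and 3.52 at TP36, 4.04 and 3.68 at TP48, and 2.61 and 3.06 at TP60. All 6 distances after PH were below both before it. Their lower end was n-Tm10 in every library. As n-Tm10 was under the cutoff in both TP0 libraries, the distances before PH rest on a gene not called occupied. Distances between the ratios themselves were not compared. A larger rise at lower scores was also seen outside the 7 genes, in groups set by the same TP0 scores from which the changes were taken. Spread between TP0 libraries can add to such a difference. At TP36 and TP60 the median changes were 1.65 and 2.09 for 48 other tRNA genes with mean TP0 scores of 2 to 4. They were 0.65 and 1.10 for the 156 at 4 or more. The narrowing is thus not shown to be particular to the initiator genes. For a rough scale, the ratios of ChIP over input were added up over the 7 windows, which have the same length. Each ratio has its own input and a pseudocount of 16, and an unoccupied gene still adds to the sum. A share of the sum is therefore no measure of a copy's share of Pol III. n-Tm5 made up 1.56% ± 0.424 (SD, n = 2) of this sum at TP0 and 7.58% ± 1.95 at TP36. It made up 7.78% ± 2.91 at TP48 and 11.1% ± 3.85 by TP60. n-Tm10 made up 0.86% ± 0.255 at TP0, where it was under the cutoff, and 3.08% ± 0.516 at TP60. The 5 high copies together still provided most of the sum in every library, and n-Tm8, for instance, contributed 22.4% ± 3.54 at TP0 and 18.4% ± 3.46 at TP60.

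Changes were compared between copies within libraries, where a shift of the whole library cancels, over 21 pairs with 2 libraries before and 6 after PH. n-Tm5 gained 2.80 more than n-Tm7, 2.67 more than n-Tm8, 2.53 more than n-Tm6 and 1.19 more than n-Tm10. n-Tm10 gained 1.61 more than n-Tm7 and 1.48 more than n-Tm8. Such differences did not overlap between libraries before and after PH in 10 of the 21 pairs. All 10 held n-Tm5 or n-Tm10, and no such share was taken over pairs of other tRNA genes. It is thus no result about the initiator genes. Of the 21 pairs, 8 reached 0.0357, the smallest p that the two-sided exact permutation test over 28 splits can give. After Benjamini-Hochberg adjustment over the 21 pairs, 0 passed (0.0938 for these 8). A pair could pass only if most of the 21 pairs reached the smallest p, so this outcome does not decide whether copies differed. Among the 5 high copies the differences were within 0.54, and the exact permutation p was 0.107 or more.

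Between the time points after PH, 0 of the 7 genes changed in any of the 3 comparisons by limma with Storey q values, as did 0.00% of occupied loci, of occupied tRNA genes and of those on chromosome 13. n-Tm10 came closest, with 1.34 from TP48 to TP60 (SE 0.50, 95% interval 0.24 to 2.43, q = 1) and 1.2 from TP36 to TP60 (SE 0.50, q = 0.528), and its TP60 libraries lay above those of TP36 and TP48. It was the only 1 of the 7 to do so, where 7.14% of occupied loci did against TP36 and 11.3% against TP48, while from TP36 to TP48 it was 0 of 7, against 12.1%. At an unadjusted p under 0.05 it was 1 of 7 from TP36 to TP60 (7 of 490 occupied loci), 1 of 7 from TP48 to TP60 (15 of 487) and 0 of 7 from TP36 to TP48 (5 of 488). The means of n-Tm5 moved from 4.45 ± 1.23 at TP36 to 5.50 ± 1.12 at TP60 with overlapping libraries.

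**Figure D3:**
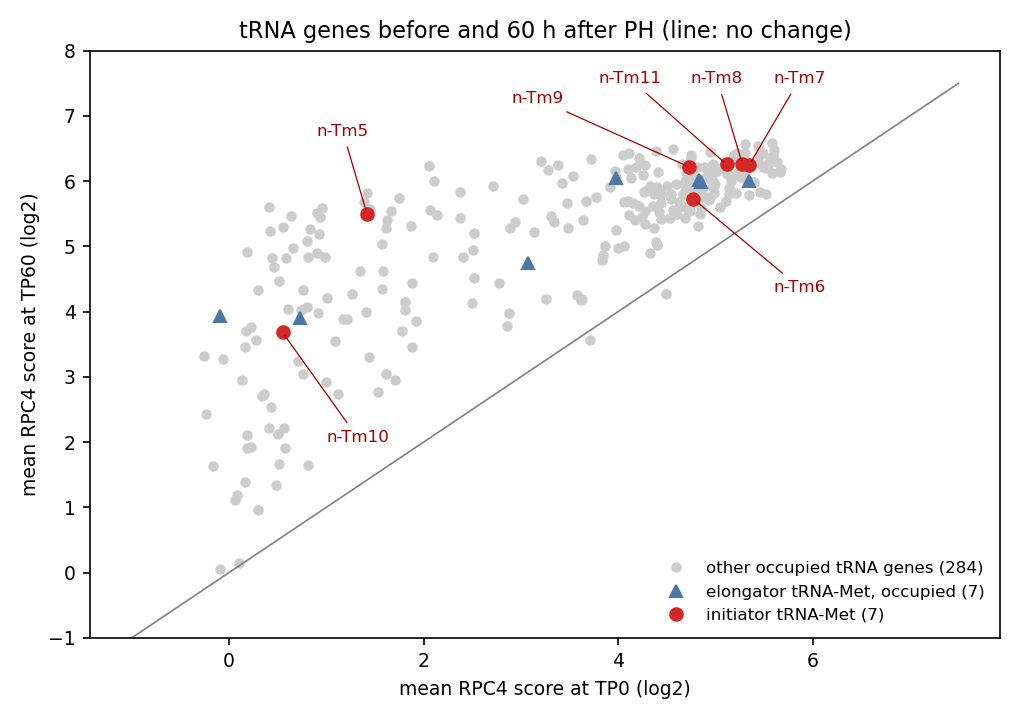
Mean RPC4 score at TP60 (y axis, log2) against that at TP0 (x axis, log2) for 298 tRNA genes occupied in at least 1 library, with the 7 initiator genes in red, 7 elongator tRNA-Met genes as blue triangles and 284 other tRNA genes in grey. The line marks equal scores. The 5 high initiator copies lie in the dense cloud on the right, and n-Tm5 (1.42 to 5.50) and n-Tm10 (0.55 to 3.68) lie on the left, where a gene can be shown through occupancy after PH alone.

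The 5 high copies can be set beside the 156 other tRNA genes with a mean TP0 score of 4 or more, all of them occupied before PH. Of these 3.85% rose by TP36, 42.3% by TP48 and 49.4% by TP60, with median changes of 0.65, 1.02 and 1.10, and of the 5 high copies 0, 0 and 1 rose. No such share is given for genes at the level of n-Tm5 and n-Tm10, because a gene low at TP0 can enter the occupied set through its scores after PH alone.

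The loci around the copies were read in the same libraries. Within 5 kb of the 6 copies on chromosome 13 there were 15 other Pol III loci, all tRNA genes, of which 9 rose by TP36, 12 by TP48 and 13 by TP60. These counts are near the shares of occupied tRNA genes of chromosome 13 that rose, 56.7%, 84.3% and 90.4%, and so are no result about the surroundings of the initiator genes. All 4 neighbours of n-Tm5 and all 3 neighbours of n-Tm10 rose at every time point. For instance n-Tr4, a tRNA-Arg gene 370 bp from n-Tm5, had scores of 0.77 and 0.75 at TP0 and 3.75 and 4.90 at TP60, and n-Tq8, a tRNA-Gln gene 2720 bp from n-Tm10, had 0.54 and 0.38 at TP0 and 4.2 and 5.17 at TP60. In both genes all libraries after PH lay above those before it. However, n-Tr4, n-Tq8 and n-Ts6, the last also beside n-Tm10, were under the cutoff in both TP0 libraries. They counted as occupied only through libraries after PH, which favours a rise.

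By contrast, n-Tg28, a tRNA-Gly gene 343 bp from n-Tm7, was high before PH (5.23 and 4.65) and did not pass at any time point, with changes of 0.97 to 1.09. Around n-Tm6, 1 of 5 neighbours rose by TP36 and 4 of 5 by TP60. The one that rose by TP36 was n-Ts18, a tRNA-Ser gene, with scores of 4.26 and 3.84 at TP0 and 6.60 and 6.16 at TP36.

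High and low genes could also be close to each other. n-Tk22, a tRNA-Lys gene 3171 bp from n-Tm8, had scores of 0.68 and 0.94 at TP0 and rose by 3.35 at TP36 (q = 0.00209, limma), where n-Tm8 changed by 0.55 (q = 0.242). n-Tm8 was thus a high copy beside a low gene, and no test of this difference was made. n-Tk22 was under the cutoff in both TP0 libraries and counted as occupied only through later ones. The windows of neighbours did not overlap, as gaps were 343 bp or more, but fragments reaching from 1 gene into the window of the next were not counted apart, and their part in the scores was not tested.

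**Figure D4:**
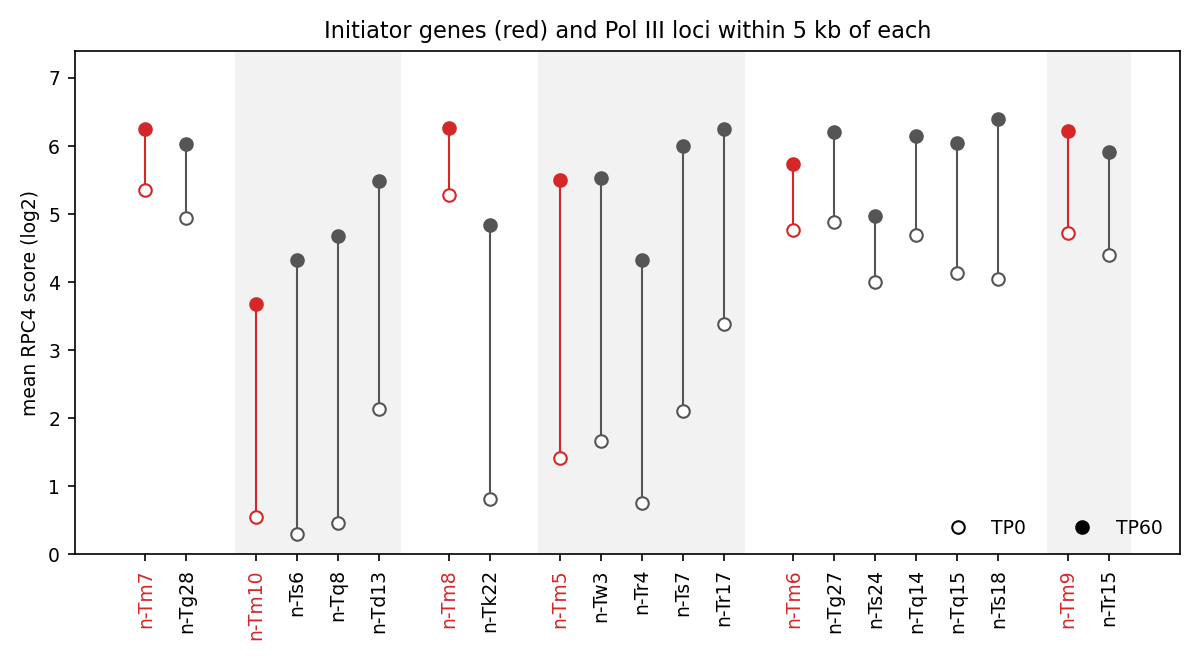
Mean RPC4 score (y axis, log2) at TP0 (open circles) and TP60 (filled circles) of 6 initiator genes (red) and of the Pol III loci within 5 kb of each (dark grey), grouped by initiator gene along the x axis. The neighbours of n-Tm10 and n-Tm5 start low or intermediate and rise, n-Tk22 beside n-Tm8 starts at 0.81, and the loci beside n-Tm7, n-Tm6 and n-Tm9 start between 4.0 and 4.94.

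With the tRNA-Met genes themselves left out, the loci most like each copy over the 8 libraries, by root mean square difference of score, lay at distances of 0.13 to 0.40. For n-Tm5 they were n-Tq1, n-Tl24 and n-Tl11, a tRNA-Gln and 2 tRNA-Leu genes, all on chromosome 13. For n-Tm10 they were the tRNA-Val gene n-Tv10 on chromosome 13, a B2 SINE on chromosome 11 and the tRNA-Lys gene n-Tk24 on chromosome 7. For the high copies all of them were tRNA genes, and n-Th4, a tRNA-His gene on chromosome 2, came first for both n-Tm11 and n-Tm8.

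Of the 11 genes labelled Met, 7 were occupied in at least 1 library, and of these 4, 5 and 6 rose by TP36, TP48 and TP60, against 2, 2 and 3 of the 7 initiator genes. Of them n-Tm2 and n-Tm12 passed the cutoff only after PH. The counts follow the label, and n-Tm2, which rose at all 3 time points, holds the initiator sequence but for 1 base. The difference between both groups was not tested. The median changes of the 7 occupied genes labelled Met, n-Tm2 included, were 1.43, 1.43 and 1.67. Before PH they also held high and low genes. The high ones were n-Tm17 at 5.35 ± 0.23 (SD, n = 2), n-Tm16 at 4.85 ± 0.05 and n-Tm15 at 4.83 ± 0.14, and the low ones n-Tm12 at 0.73 ± 0.09 and n-Tm2 at -0.09 ± 0.29. Unlike the initiator genes, they had genes between these, n-Tm13 at 3.98 ± 0.18 and n-Tm14 at 3.07 ± 0.61.

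The 2 near copies of the initiator sequence that carry the label Met had unlike scores, with no test of their difference. n-Tm2, on chromosome 13 as are n-Tm5 and n-Tm10, had scores of 0.11 and -0.29 at TP0, 3.05 and 2.20 at TP36, 2.46 and 2.92 at TP48, and 3.44 and 4.43 at TP60. It was under the cutoff in both TP0 libraries and above it in all 6 later ones, as n-Tm10 was, and rose by 2.71 (SE 0.49, q = 0.00209), 2.78 (SE 0.49, q = 0.00118) and 4.02 (SE 0.49, q = 0.000187) by limma. n-Tm3, on chromosome 15, had scores between -0.51 and 0.22 and was under the cutoff in all 8 libraries.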

How the data were processed

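RPC4 log2 scores and percent columns were used as the authors deposited them. Per the methods, the authors mapped paired-end fragments to NCBI37, scaled totals to the median and took the log2 ratio of ChIP over input counts with a pseudocount of 16. The deposited percent columns say how much of a score came from fragments with multiple matches. Fragment counts and depth are unknown, so that only the spread between replicates measures error. RPB2 and H3K4me3 data were not analysed here. The members and lists were chosen with earlier results of these data known.

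The model was fitted in limma 3.58.1 (R 4.3.3) over all loci, with 1 mean per time point in 8 libraries, two-sided p and Storey q (lambda 0.05 to 0.95, spline with 3 degrees of freedom). A gene was called when q was under 0.05 and it was occupied at either time point. Pairs were compared by exact permutation (Python 3.11.15). Named were all initiator genes, elongator genes where compared, loci starting within 5 kb, and the 3 most alike loci outside tRNA-Met. Sequences were read from the NCBI37 assembly. Alternatives were Benjamini-Hochberg adjustment, a replicate block, 2 time points only, library centring and shifting, loci with over 50% multiple matches left out, a variance trend, raised cutoffs, and each library left out.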

Additional observations from a re-analysis of the deposited data

How the results depend on the processing

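Depth is unknown, and with 2 pools per time point 1 library can decide a call. The 7 genes numbered 2, 2 and 3 risen at TP36, TP48 and TP60, and the elongator genes 4, 5 and 6. With single libraries left out the initiator counts ran from 0 to 6, 1 to 2 and 2 to 7, and the elongator counts from 1 to 7, 2 to 3 and 2 to 6. A lone library was assumed to vary like the other groups. Without TP36 replicate 1, n-Tm11 changed by -0.24, n-Tm7 by -0.16 and n-Tm8 by -0.01 at TP36, with highest values of 1.29, 0.80 and 1.11 without another library.

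The sample titles name the replicates Series 1 and Series 2, and cutoffs were higher in replicate 2 at every time point. n-Tm11, n-Tm8 and n-Tm10 ranked lower in replicate 2 at every time point (n-Tm11 10 to 21 against 81 to 116), and the other copies went either way. Deviations of same-numbered replicates correlated at 0.53 for TP0 with TP36 and 0.30 for TP48 with TP60. They correlated at 0.10 or less for the other pairs of time points (lowest -0.28, over occupied loci). The main model had no term for the series. With a replicate block, 2, 2 and 3 initiator genes and 3, 4 and 4 elongator genes rose. Benjamini-Hochberg adjustment gave 3, 3 and 4 risen elongator genes at TP36, TP48 and TP60, fewer than the main fit at each. The variance trend gave 4 initiator genes at TP48, and 7 rose when TP0 and TP48 were fitted by themselves. Leaving out loci with multiple matches changed none of the 3 initiator counts.

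Centring each library on the median of occupied loci, which moved more than the median change, gave 1, 1 and 2 risen and 5 fallen initiator genes at TP36, TP48 and TP60, and 2 risen and 4, 5 and 4 fallen elongator genes. Storey q values of that fit were below the unadjusted p, which for the 5 fallen initiator genes was at most 0.0443. The differences became -1.29 (n-Tm11), -1.49 (n-Tm7), -1.26 (n-Tm8), -0.96 (n-Tm6) and -0.68 (n-Tm9) at TP36, -1.06, -1.23, -1.13, -1.01 and -1.0 at TP48 with -0.22 for n-Tm10, and -1.10, -1.34, -1.26, -1.28 and -0.75 at TP60. With the shift by the median deviation, added after seeing the data, 1 initiator gene rose at TP48, and 2, 2 and 3 elongator genes rose. The differences of n-Tm11, n-Tm7, n-Tm8 and n-Tm6 became -0.41, -0.62, -0.39 and -0.08 at TP36, -0.23, -0.40, -0.30 and -0.18 at TP48, where n-Tm9 had -0.17, and -0.18, -0.43, -0.34 and -0.37 at TP60. The cause of the other moves was not tested.

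Raised cutoffs and a requirement for both libraries left 5 and 6 occupied initiator genes at TP0 and 7 at each later time point, and 2 of 56 ranks moved when only occupied genes were ranked. No pair passed with a library left out, which says nothing on robustness. Without a TP0 library the smallest possible p of the exact permutation test was 0.143, so that no pair could pass. Without a later library it was 0.0476, which leaves almost no room for the adjustment.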
